A study of Mus musculus with 17 samples.

Results

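The 9 genes described here carry the adrenergic control of fat breakdown: 3 receptors for adrenaline and noradrenaline (Adrb1, Adrb3 and Adra2a), 3 lipases (Pnpla2, Lipe and Mgll), an activator and an inhibitor of the first lipase (Abhd5 and G0s2), and a protein that coats the lipid droplet (Plin1). They were chosen by symbol from the 54658 genes of the deposited table. All 9 were in the table and all 9 passed the filter on low values. The libraries came from mouse tissue. KO implants (codes MKM and MKF) grew from fibroblasts of leptin knockout pups, and WT implants (MWM and MWF) from fibroblasts of wild-type pups; per the labels the cells (MEF, mouse embryonic fibroblasts) were injected under the skin of the sternum of LD mice aged 3 to 5 weeks, and formed a tissue resembling fat. The codes ending in M and F mark males and females, and the animals of these 4 groups had knee surgery at 16 weeks and were killed at 28 weeks, although the series' text speaks of male recipients. Visceral fat of the animals themselves came under the codes EVM (with surgery), EVFY (not spelled out in the labels) and EVFN (without surgery), and subcutaneous fat under ESM (males, with surgery). These mice too were killed at 28 weeks, those with surgery had it at 16 weeks, and the sex behind EVM, EVFY and EVFN is not spelled out. The labels do not say which animals carried the endogenous fat, nor whether replicate numbers stand for different mice or different cell injections.

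In white fat, noradrenaline from sympathetic nerves acts on beta receptors, which raise cAMP through the stimulatory G protein and so switch on protein kinase A. The kinase phosphorylates perilipin 1 (Plin1) on the droplet surface and hormone-sensitive lipase (Lipe). Perilipin 1 then releases CGI-58 (Abhd5), the activator of adipose triglyceride lipase (Pnpla2), which takes the first fatty acid from a triglyceride. Hormone-sensitive lipase takes the next one from the diglyceride and monoglyceride lipase (Mgll) the last. G0s2 binds and inhibits adipose triglyceride lipase, and the alpha-2A receptor (Adra2a) lowers cAMP through an inhibitory G protein. In the mouse, the beta-3 receptor (Adrb3) is largely restricted to fat cells.

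The 16 libraries held 16444965 to 25805502 reads each, so that 1 read was worth 0.0388 to 0.0608 CPM (read counts scaled so that each library sums to 1000000). Although the labels name ganglia as the tissue, 12 markers of sensory neurons summed to only 7.34 to 64.3 CPM per library, while 6 markers of adipocytes averaged 1169 to 4406 CPM per gene. A pair of libraries went against their labels. Across 17871 genes, which are not independent replicates, the library labelled EVFN1 (visceral fat) correlated most closely with MKF1, a KO implant (r = 0.984, against 0.906 with EVFN2), and the library labelled MKM1 (KO implant) most closely with EVFY1, visceral fat (r = 0.989, against 0.890 with MKM2). Xist, a transcript of female cells, read 352 CPM in MKM1, a male code, and the Y-linked Ddx3y read 0 CPM there. In EVFN1 they read 278 and 29.35 CPM. EVFN1 and MKM1 are given singly and stand outside all means. There remained 3 libraries of KO implants, 4 of WT implants, 5 of visceral fat and 2 of subcutaneous fat. Differences were tested with limma on log2(CPM + 0.5) over all 17871 genes, and a gene is said to rise or fall where its adjusted p (Benjamini-Hochberg) was under 0.05. Since replicates may be technical, p-values speak only of the spread among the libraries given.

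Adrb3 was the one gene of the 9 whose difference between KO and WT implants passed the test. Against WT implants, 0 of the 9 rose and 1 fell in KO implants, where 6.67% of all genes rose and 4.1% fell. Against visceral fat, 3 fell in KO implants (Adrb3, Pnpla2 and Lipe) and 0 rose, beside 16.4% of all genes higher and 8.25% lower. In WT implants 5 fell against visceral fat (Adrb3, G0s2, Pnpla2, Lipe and Mgll) and 0 rose, beside 15.9% higher and 6.5% lower. Against subcutaneous fat, 3 fell in KO implants (Adrb3, Pnpla2 and Lipe, beside 13.4% of all genes higher and 4.9% lower) and 1 in WT implants (Pnpla2, beside 8.57% higher and 1.82% lower). These comparisons share libraries, so their counts are not separate evidence. The median log2 fold change of the 9 genes was -0.18 in KO against WT implants, where the median of all genes was -0.06. It was -0.54 in KO implants against visceral fat (all genes 0.08) and -0.63 in WT implants against visceral fat (all genes 0.11).

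**Figure D1:**
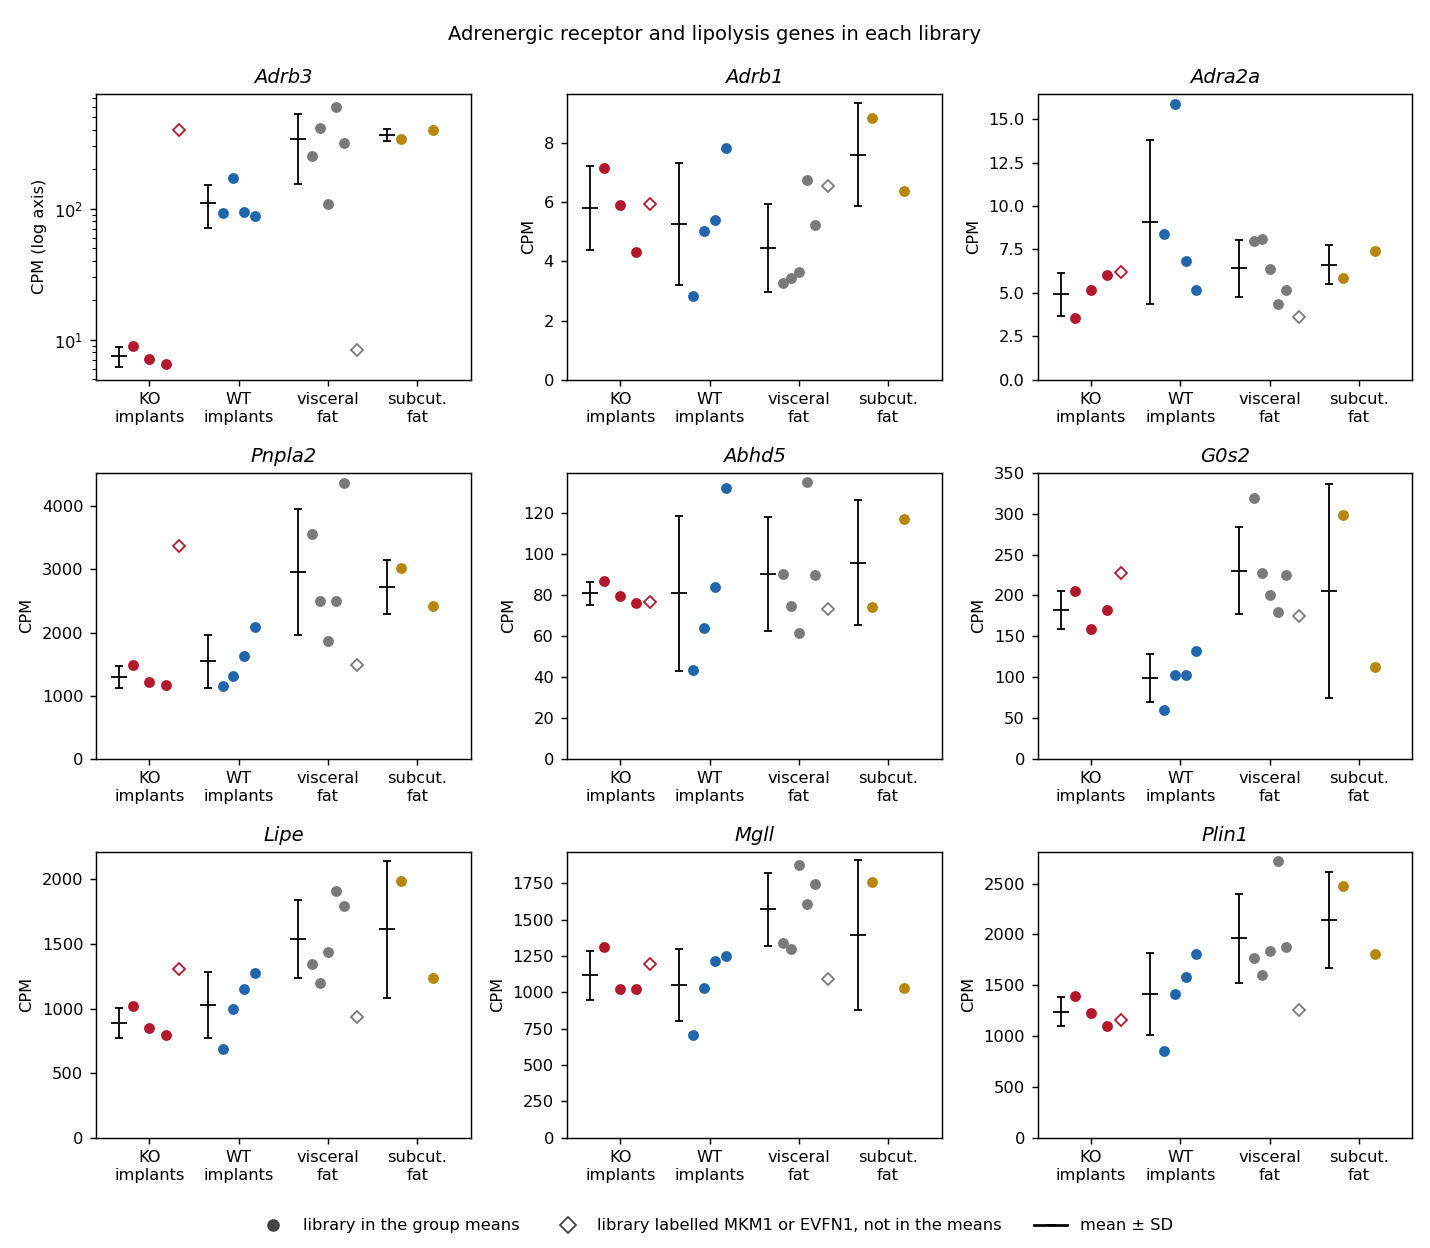
CPM of the 9 genes in each library by side (KO implants, WT implants, visceral fat, subcutaneous fat), with the mean ± SD of the 3, 4, 5 and 2 libraries that enter the means; open diamonds are the libraries labelled MKM1 and EVFN1. The Adrb3 panel has a log axis; its 3 KO implants lie at 6.52 to 8.99 CPM, below the 4 WT implants at 87.5 to 170.6 CPM.

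The level per kilobase of exons sets the genes in order. Pnpla2 was highest on every side, at 427 CPM per kb in KO implants, 511 in WT implants, 979 in visceral fat and 900.3 in subcutaneous fat. Plin1 ranked next on every side (267 CPM per kb in KO implants and 422 in visceral fat), followed by Mgll, and then by G0s2 and Lipe in either order. Adrb3 stood above Abhd5 in WT implants (32.99 against 13.5 CPM per kb) and in visceral fat (101 against 15.1), and below it in KO implants (2.23 against 13.5). Adrb1 and Adra2a were the lowest on every side, at 1.72 and 1.02 CPM per kb in KO implants, where Adrb3 was the next above them. Of the 14 libraries, the WT implant MWF1 was the lowest for 7 of the 9 genes, and it also had the lowest sum of the 6 adipocyte markers (7014 CPM, against 9942 to 26436 CPM in the other 13) and the highest sum of 5 skeletal muscle markers (17884 CPM).

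Adrb3 encodes the beta-3 receptor (GRCm38 chr8:27225776-27250616, minus strand). It read 6.52 CPM in MKM2, 8.99 in MKF1 and 7.08 in MKF2, against 94.2 CPM in MWM1, 87.5 in MWM2, 93.2 in MWF1 and 170.6 in MWF2. All KO implants lay far below the lowest WT implant, and the sides did not overlap. The log2 difference came to -3.80 (SE 0.52, adjusted p = 0.00296 in limma), a mean of 7.53 ± 1.29 CPM in KO implants and 111 ± 39.6 CPM in WT implants (SD, n = 3 and 4), which is 14.8 times as much in WT implants. The call held when any 1 of the 14 libraries was left out (log2 fold changes of -4.02 to -3.58). It was lost with all 16 libraries as labelled (-2.34, adjusted p = 0.308), where MKM1 entered the KO implants at 398 CPM. EVFN1, labelled visceral fat, read 8.35 CPM. In bulk tissue, fewer cells of a type and less RNA per cell cannot be told apart. The sum of 8 macrophage markers, all above 0 in every library, was 5757 to 6879 CPM in KO implants, 1213 to 1748 CPM in WT implants and 784 to 2651 CPM in visceral fat. That of 5 skeletal muscle markers was 74.4 to 1138 CPM in KO implants, 1432 to 17884 CPM in WT implants and 45.9 to 587 CPM in visceral fat. In subcutaneous fat the muscle markers summed to 120 CPM in ESM1 and 8803 CPM in ESM2, the latter inside the range of the WT implants. Markers of lung epithelium (4 genes) summed to 9.23 to 22.9 CPM in KO implants and 115 to 496 CPM in WT implants, with Sftpc and Sftpa1 at 0 in the 5 visceral libraries of the means, and markers of the parathyroid (3 genes) to 0.531 to 3.46 CPM in KO implants and 59.6 to 109 CPM in WT implants, with Pth at 0 in those 5 libraries. The part of such cells in the difference of Adrb3 was not tested.

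In fat of the animals themselves, Adrb3 read 108 CPM in EVM1, 603 in EVM2, 254 in EVFY1, 416 in EVFY2 and 318 in EVFN2, and 339.7 and 396 CPM in the subcutaneous libraries ESM1 and ESM2. KO implants lay below every library of endogenous fat. Their log2 fold change was -5.27 against visceral fat (SE 0.51, adjusted p = 0.000277 in limma) and -5.57 against subcutaneous fat (SE 0.62, adjusted p = 0.000755), and both were called without any 1 library. WT implants fell against visceral fat by 1.47 on the log2 scale (SE 0.45, adjusted p = 0.0477), but their range overlapped it, through MWF2 and EVM1, and the call was lost in 11 of 14 fits that left out 1 library (log2 fold changes of -1.88 to -1.06). WT implants lay below both subcutaneous libraries, at -1.77 on the log2 scale (SE 0.57), which did not pass (adjusted p = 0.0885). Taking all 16 libraries as labelled, the log2 fold change of KO implants was -2.96 against visceral fat (adjusted p = 0.431) and -4.12 against subcutaneous fat (adjusted p = 0.216).

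The sum of the adipocyte markers was 11433 to 13863 CPM in KO implants, 7014 to 15934 CPM in WT implants, 16531 to 26436 CPM in visceral fat and 12828 to 23962 CPM in subcutaneous fat. Adrb3 amounted to 0.0570% to 0.0648% of that sum in KO implants, 0.549% to 1.72% in WT implants and 0.647% to 3.17% in visceral fat. When each library was scaled to these 6 markers, the median of all genes moved by 0.88 upward in KO implants against visceral fat, by 0.87 in WT implants against visceral fat and by 0.01 in KO against WT implants (log2). On that scale Adrb3 still differed in KO implants, by -3.79 against WT implants (adjusted p = 0.00340), -4.39 against visceral fat (adjusted p = 0.000115) and -4.93 against subcutaneous fat (adjusted p = 0.000460). WT implants differed from visceral fat by -0.60 (adjusted p = 0.228). The antisense gene Gm45470 overlaps exons of Adrb3. Whether exons of Gm45470 do so was not tested. The strand setting was not given, and whether reads were shared between these genes was not tested. Gm45470 read 0.386 to 0.725 CPM in KO implants, 3.44 to 10.2 CPM in WT implants and 7.92 to 45.5 CPM in visceral fat.

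Adrb1 encodes the beta-1 receptor (GRCm38 chr19:56722199-56733113, plus strand) and rested on 53 to 174 reads per library. It read 4.33 CPM in MKM2, 7.15 in MKF1 and 5.92 in MKF2, against 5.40 CPM in MWM1, 7.85 in MWM2, 2.82 in MWF1 and 5.05 in MWF2. The KO implants lay inside the range of the WT implants, with a log2 fold change of 0.08 (95% interval -0.56 to 0.72, adjusted p = 0.873). Visceral fat spanned 3.27 to 6.74 CPM and subcutaneous fat 6.38 and 8.85 CPM, and no comparison of Adrb1 passed the test on the deposited values. With the adipocyte scaling it was higher in KO implants (1.12, adjusted p = 0.00965) and in WT implants (1.02, adjusted p = 0.00666) than in visceral fat, where the median of all genes had moved by 0.88 and 0.87. Of all 17871 genes, 11088 and 13403 were called higher in these comparisons on that scale.

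Adra2a encodes the alpha-2A receptor (GRCm38 chr19:54044151-54048982, plus strand), which opposes the beta receptors, and rested on 62 to 261 reads. It read 6.01 CPM in MKM2, 3.58 in MKF1 and 5.15 in MKF2, against 6.86 CPM in MWM1, 5.14 in MWM2, 8.39 in MWF1 and 15.9 in MWF2. The sides overlapped (log2 fold change -0.66, 95% interval -1.25 to -0.06, adjusted p = 0.142), and visceral fat spanned 4.38 to 8.11 CPM. With the adipocyte scaling Adra2a was higher in WT implants than in visceral fat (1.30, adjusted p = 0.00333). So were 13403 of all 17871 genes on that scale, where the median of all genes had moved upward by 0.87. Adra2a reads amounted to 92.2% of Adrb3 reads in MKM2, 39.8% in MKF1 and 72.7% in MKF2, against 5.87% to 9.30% in WT implants, 0.726% to 5.88% in visceral fat, and 1.72% and 1.87% in subcutaneous fat. KO implants lay above all other libraries in the means. The mean log2 ratio of Adra2a to Adrb3 was -0.58 ± 0.57 in KO implants, -3.61 ± 0.27 in WT implants and -5.45 ± 1.10 in visceral fat (SD, n = 3, 4 and 5). It was higher in KO than in WT implants by 3.02 (exact two-sided permutation p = 0.0286, the smallest that 3 against 4 libraries allow), and higher in KO implants than in visceral fat by 4.87 (exact permutation p = 0.0179, the smallest possible). It was also higher in WT implants than in visceral fat, by 1.84 (exact permutation p = 0.0159), and each of the 3 had an adjusted p of 0.0429 over 6 ratio tests. With all 16 libraries as labelled the difference between KO and WT implants was 1.70, with an adjusted exact permutation p of 0.274. Adrb3, the denominator of this ratio, differed by -3.80 in KO against WT implants, where Adra2a differed by -0.66. The ratio differences are therefore not separate evidence from those of Adrb3.

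On the deposited values none of 5 further adrenoceptors rose or fell. Of Adra1a, Adra1b, Adra1d, Adra2b and Adra2c, 0 of 5 were called by limma or by edgeR in any comparison. Over these comparisons limma called 0.537% to 16.4% of all genes higher and 0.0112% to 8.25% lower. Beside such shares 0 of 5 does not set these genes apart. In KO against WT implants, where 6.67% of all genes rose and 4.1% fell, 0 of 5 had an unadjusted p under 0.05 in either. In limma Adra2b had such a p against visceral fat in both kinds of implant. Against subcutaneous fat, Adra1d had it in WT implants, and Adra1b and Adra1d in visceral fat. Adra1a, the most abundant of the 5, averaged 17.5 CPM in KO implants, 15.7 CPM in WT implants and 13.3 CPM in visceral fat. With the adipocyte scaling Adra1a was higher than in visceral fat in KO implants (1.23, adjusted p = 0.00529 in limma) and in WT implants (0.96, adjusted p = 0.00880). The median of all genes had there moved upward by 0.88 and 0.87.

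**Figure D2:**
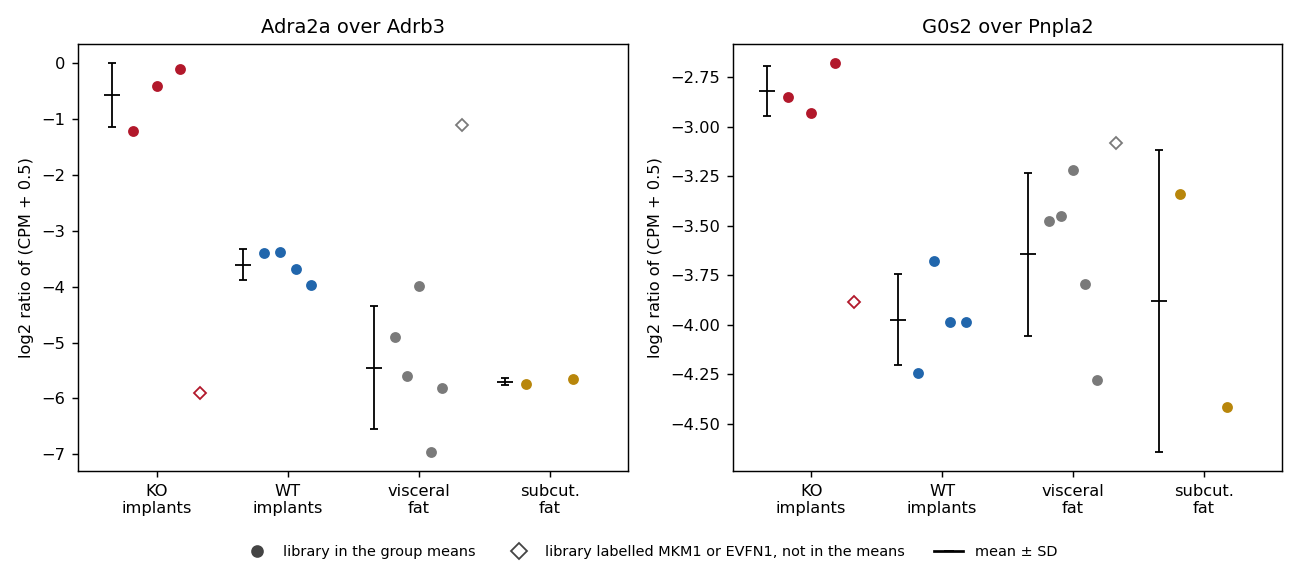
Each point is a library, with sides from left to right as KO implants, WT implants, visceral fat and subcutaneous fat: the log2 ratio of Adra2a to Adrb3 and of G0s2 to Pnpla2, both from CPM + 0.5. Bars give the mean ± SD; open diamonds are MKM1 and EVFN1. In both panels the 3 KO implants in the means stand above all 4 WT implants.

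Pnpla2 encodes adipose triglyceride lipase (GRCm38 chr7:141455198-141460743, plus strand). It read 1171 CPM in MKM2, 1489 in MKF1 and 1212 in MKF2, against 1866 CPM in EVM1, 2497 in EVM2, 3562 in EVFY1, 2492 in EVFY2 and 4373 in EVFN2. Every KO implant lay below every visceral library, at -1.28 on the log2 scale (SE 0.20, adjusted p = 0.00261 in limma). WT implants read 1621 CPM in MWM1, 2095 in MWM2, 1145 in MWF1 and 1311 in MWF2; they overlapped visceral fat in MWM2 and differed from it by -1.02 (SE 0.18, adjusted p = 0.00589). Both calls held without any 1 library. Both were lost with all 16 libraries as labelled (adjusted p = 0.457 for KO and 0.187 for WT implants) and with the adipocyte scaling, where the differences were -0.39 (adjusted p = 0.205) for KO implants and -0.15 (adjusted p = 0.574) for WT implants. Against subcutaneous fat (3021 CPM in ESM1 and 2416 in ESM2) the log2 fold change was -1.11 in KO implants (SE 0.24, adjusted p = 0.0153) and -0.85 in WT implants (SE 0.23, adjusted p = 0.0473), the first lost without ESM1 (adjusted p = 0.0833) and the second in 8 of 14 fits that left out 1 library (adjusted p up to 0.255). KO and WT implants overlapped (-0.26, 95% interval -0.73 to 0.21, adjusted p = 0.447).

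G0s2, the inhibitor of that lipase (GRCm38 chr1:193272161-193273217, minus strand), read 182 CPM in MKM2, 206 in MKF1 and 159 in MKF2, against 102 CPM in MWM1, 132 in MWM2, 59.9 in MWF1 and 102 in MWF2. The KO implants lay above all WT implants, yet the difference of 0.93 on the log2 scale did not pass the test (SE 0.34, adjusted p = 0.116), which ranged from 0.0390 to 0.257 when 1 library was left out. WT implants fell against visceral fat (180 to 320 CPM, without overlap) by 1.24 on the log2 scale (SE 0.30, adjusted p = 0.0200), a call lost without MWF1 or MWM1 (adjusted p up to 0.0780) and with the adipocyte scaling (-0.37, adjusted p = 0.159). KO implants overlapped visceral fat (-0.31, adjusted p = 0.535). Lamb3, on the other strand, overlaps exons of G0s2. Whether exons of Lamb3 do so was not tested. The strand setting was not given, and whether reads were shared between these genes was not tested. Lamb3 averaged 26.3 CPM in KO implants, 23.6 CPM in WT implants and 7.43 CPM in visceral fat.

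Set against its target in the same library, G0s2 reads were 15.6% of Pnpla2 reads in MKM2, 13.8% in MKF1 and 13.1% in MKF2, against 5.23% to 7.78% in WT implants and 5.13% to 10.7% in visceral fat. No KO implant overlapped either. The mean log2 ratio was -2.82 ± 0.13 in KO implants, -3.97 ± 0.23 in WT implants and -3.64 ± 0.41 in visceral fat (SD, n = 3, 4 and 5). It was higher in KO than in WT implants by 1.15 (exact two-sided permutation p = 0.0286, adjusted p = 0.0429) and higher in KO implants than in visceral fat by 0.82 (exact permutation p = 0.0357, adjusted p = 0.0429), while WT implants and visceral fat overlapped (-0.33, exact permutation p = 0.214). With all 16 libraries as labelled the difference between KO and WT implants was 0.89, with an adjusted exact permutation p of 0.257.

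Abhd5, which encodes CGI-58 (GRCm38 chr9:122351608-122381524, plus strand), did not rise or fall in any comparison. It read 75.8 CPM in MKM2, 86.7 in MKF1 and 79.2 in MKF2, against 83.6 CPM in MWM1, 132 in MWM2, 43.4 in MWF1 and 63.8 in MWF2. The KO implants lay close together, inside the wide range of the WT implants (log2 fold change 0.09, 95% interval -0.61 to 0.79, adjusted p = 0.874). Visceral fat spanned 61.4 to 135 CPM and subcutaneous fat read 73.9 and 117 CPM.

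The promoter windows of Pnpla2, G0s2 and Lipe are shown because, after Adrb3, these genes had the smallest adjusted p in the comparisons with endogenous fat; those of Mgll, which also passed in 1 of them, are not shown. They run from 250 bases before to 50 bases after the start site, are taken from RefSeq (GRCm38.p6), and are written 5′ to 3′ on the gene's strand. Capitals mark matches on either strand to the GC box GGGCGG or to TGACG, the core of the cAMP response element; neighbouring matches may overlap.
Pnpla2 (chr7:141454938-141455237, plus strand): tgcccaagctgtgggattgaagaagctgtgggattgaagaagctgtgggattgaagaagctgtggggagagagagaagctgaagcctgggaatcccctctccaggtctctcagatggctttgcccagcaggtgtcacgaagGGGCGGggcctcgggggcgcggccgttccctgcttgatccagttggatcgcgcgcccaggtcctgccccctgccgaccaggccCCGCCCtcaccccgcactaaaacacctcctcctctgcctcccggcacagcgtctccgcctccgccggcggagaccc
G0s2 (chr1:193273139-193273438, minus strand): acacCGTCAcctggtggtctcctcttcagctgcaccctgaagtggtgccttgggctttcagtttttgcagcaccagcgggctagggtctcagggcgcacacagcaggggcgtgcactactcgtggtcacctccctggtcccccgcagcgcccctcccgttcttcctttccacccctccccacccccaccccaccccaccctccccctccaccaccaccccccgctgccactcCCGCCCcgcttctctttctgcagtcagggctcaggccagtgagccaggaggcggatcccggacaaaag
Lipe (chr7:25395938-25396237, minus strand): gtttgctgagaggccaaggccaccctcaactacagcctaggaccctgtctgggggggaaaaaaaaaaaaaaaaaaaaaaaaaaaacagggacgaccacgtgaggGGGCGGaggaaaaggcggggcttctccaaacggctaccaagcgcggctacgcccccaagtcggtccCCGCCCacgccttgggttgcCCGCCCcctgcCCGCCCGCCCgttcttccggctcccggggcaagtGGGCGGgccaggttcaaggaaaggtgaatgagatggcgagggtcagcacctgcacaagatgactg
RefSeq windows were found for 8 of the 9 genes, 10 windows in all, since Lipe and Mgll have a pair each; Adrb3 is named only. The GC box was in 8 of 10 windows and in 35.7% of all 32851 mouse promoter windows of this length, with 2 matches for Pnpla2, 1 for G0s2 and 6 for the Lipe window shown. TGACG was in 5 of 10 windows and 20.8% of all, and in G0s2 alone of the 3 shown. The nuclear receptor half-site AGGTCA was in 1 of 10 (Abhd5) and 16.3% of all, and CCAAT in 1 of 10 (Adrb1) and 37.4% of all. Such matches describe letters in a window and not binding.

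Lipe encodes hormone-sensitive lipase (GRCm38 chr7:25379527-25398710, minus strand). It read 794 CPM in MKM2, 1017 in MKF1 and 853 in MKF2, against 1440 CPM in EVM1, 1913 in EVM2, 1345 in EVFY1, 1200.3 in EVFY2 and 1792 in EVFN2. KO implants fell below all of visceral fat, by 0.86 on the log2 scale (SE 0.21, adjusted p = 0.0203 in limma); the call was lost without MKF2 or MKM2 (adjusted p up to 0.0662). WT implants read 1151 CPM in MWM1, 1274 in MWM2, 688 in MWF1 and 997 in MWF2, and fell against visceral fat by 0.64 with overlap (SE 0.19, adjusted p = 0.0432), a call lost in 9 of 14 fits without 1 library (adjusted p up to 0.134). Against subcutaneous fat (1987 and 1239 CPM) KO implants fell by 0.87 (SE 0.26, adjusted p = 0.0494), which was lost in 8 of 14 such fits (adjusted p up to 0.248). With the adipocyte scaling the differences from visceral fat were 0.03 in KO implants and 0.23 in WT implants, so that the direction turned. KO and WT implants overlapped (-0.22, 95% interval -0.72 to 0.28, adjusted p = 0.553).

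Mgll encodes monoglyceride lipase (GRCm38 chr6:88724412-88828360, plus strand). It read 1022 CPM in MKM2, 1309 in MKF1 and 1019.7 in MKF2, and 1219 CPM in MWM1, 1247 in MWM2, 708 in MWF1 and 1028 in MWF2, against 1296 to 1874 CPM in visceral fat. WT implants lay below all of visceral fat (log2 fold change -0.63, SE 0.19, adjusted p = 0.0475), a call lost in 10 of 14 fits without 1 library (adjusted p up to 0.139). KO implants overlapped visceral fat in MKF1 (-0.54, adjusted p = 0.102), and KO and WT implants overlapped each other (0.08, 95% interval -0.42 to 0.59, adjusted p = 0.842). With the adipocyte scaling, Mgll was higher by 0.34 in KO implants and by 0.24 in WT implants than in visceral fat, neither called.

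Plin1 encodes perilipin 1 (GRCm38 chr7:79720218-79732903, minus strand). It read 1103 CPM in MKM2, 1396 in MKF1 and 1226 in MKF2, and 1584 CPM in MWM1, 1805 in MWM2, 853 in MWF1 and 1410.3 in MWF2, against 1601 to 2720.3 CPM in visceral fat. KO implants lay below every library of visceral and of subcutaneous fat (1811 and 2474 CPM), without passing the test (-0.68, adjusted p = 0.0583, and -0.82, adjusted p = 0.0708). The direction against visceral fat turned with the adipocyte scaling (0.21 in KO implants and 0.37 in WT implants). KO and WT implants overlapped (-0.18, 95% interval -0.70 to 0.34, adjusted p = 0.648).

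**Figure D3:**
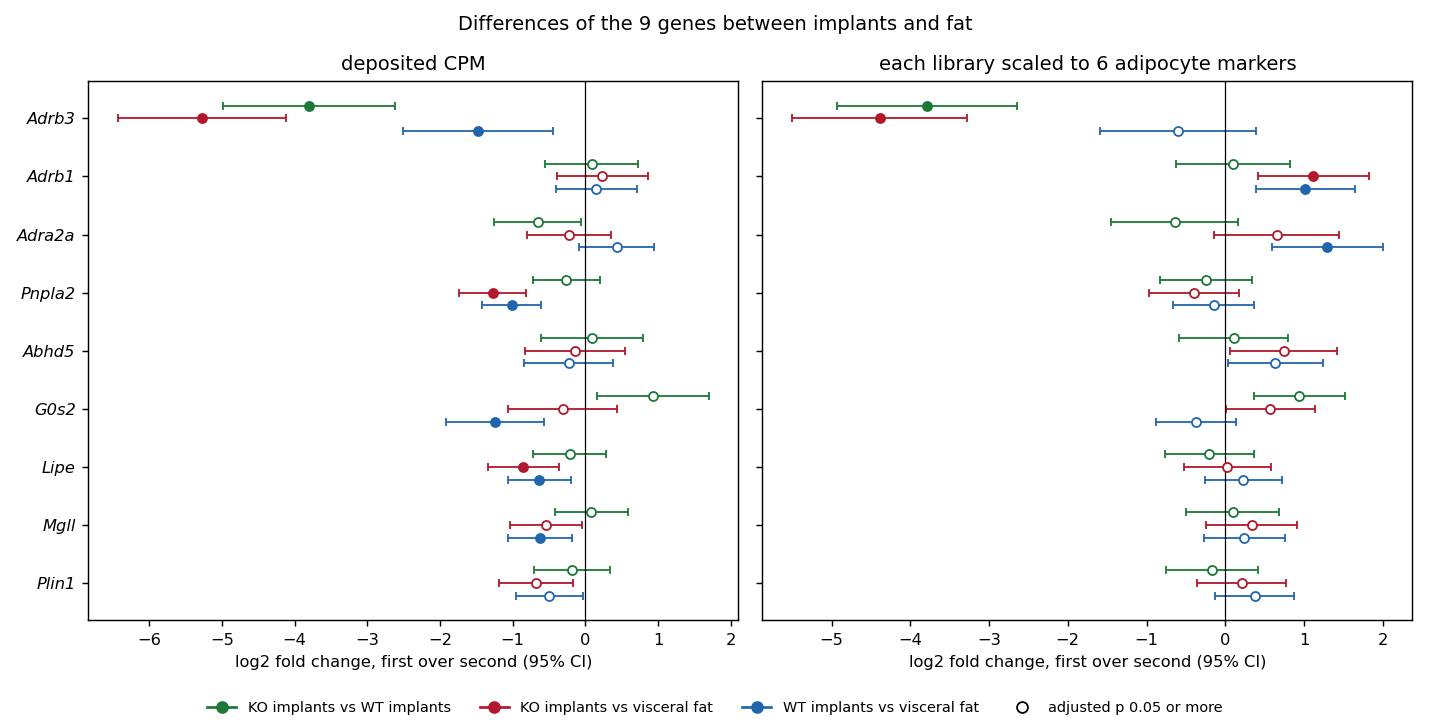
Log2 fold changes of the 9 genes with 95% intervals for KO implants against WT implants, KO implants against visceral fat and WT implants against visceral fat; filled points have an adjusted p under 0.05. Adrb3 in KO implants lies far to the left both with the deposited CPM (-3.80 and -5.27) and with each library scaled to 6 adipocyte markers (-3.79 and -4.39), whereas the differences of Lipe, Mgll and Plin1 from visceral fat move to above 0 in the scaled panel.

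Visceral and subcutaneous fat were set apart by none of the 9 genes: 0 of 9 were called by limma or edgeR, 1 of 9 (Adrb1) had an unadjusted p under 0.05 in each, and 0.565% of all genes were higher and 0.632% lower in visceral fat. Adrb3 differed by -0.30, with a wide interval from 5 against 2 libraries (95% interval -1.57 to 0.97). The difference between KO and WT implants was also compared between the male and female codes, with MKM2 as the one male KO library. Of the 9 genes 0 were called by limma or edgeR, and 1 of 9 in limma (Adra2a) and 2 of 9 in edgeR had an unadjusted p under 0.05. Among all genes, 0.537% were higher and 0.0112% lower in that contrast. For Adrb3 the log2 difference, negative in both, was less negative in the male than in the female codes by 0.20 (95% interval -2.17 to 2.57, adjusted p = 0.949). Adra2a differed by 1.34 (95% interval 0.15 to 2.54, adjusted p = 0.263); MKM2 lay inside and both female KO implants lay below the range of their WT counterparts.

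Around these 9 genes, 68 further genes of the pathway in 7 lists were followed. In KO against WT implants 7 of 68 rose (10.3%) and 4 fell (5.88%), against the 6.67% and 4.1% of all genes. Against visceral fat 10 rose (14.7%) and 7 fell (10.3%) in KO implants, where 16.4% and 8.25% of all genes did, and 7 rose (10.3%) and 13 fell (19.1%) in WT implants, where 15.9% and 6.5% did. Against subcutaneous fat 10 rose (14.7%) and 7 fell (10.3%) in KO implants, where 13.4% and 4.9% of all genes did, and 4 rose (5.88%) and 5 fell (7.35%) in WT implants, where 8.57% and 1.82% did. Of 21 genes of cAMP production and protein kinase A, 2 rose and 1 fell in KO against WT implants (median log2 fold change 0.06). Adcy3, an adenylyl cyclase that makes cAMP, averaged 102 CPM in KO and 29.2 CPM in WT implants (1.74, SE 0.21, adjusted p = 0.00164). Adcy7, another adenylyl cyclase, averaged 189 and 91.0 CPM on those sides (1.29, SE 0.25, adjusted p = 0.0151), a call lost without MKF2 or MWM2 (adjusted p up to 0.0592). Pde4d, a phosphodiesterase that breaks cAMP down, averaged 16.0 CPM in KO and 41.1 CPM in WT implants (-1.20, SE 0.31, adjusted p = 0.0432, up to 0.118 without 1 library and 0.0567 in edgeR). The genes for the G protein, Gnas, and for the catalytic and regulatory subunits of the kinase (Prkaca, Prkacb, Prkar1a, Prkar1b, Prkar2a and Prkar2b) were not called in that comparison.

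The lists next to the droplet moved as follows in KO against WT implants, where 6.67% of all genes rose and 4.1% fell. Of 11 lipid droplet proteins 2 rose and 0 fell (median 0.19): Plin2, which coats droplets in many cell types, averaged 1558 CPM in KO and 450 CPM in WT implants (1.96, SE 0.20, adjusted p = 0.000768), and Hilpda, an inhibitor of adipose triglyceride lipase, 17.9 and 6.87 CPM (1.39, SE 0.20, adjusted p = 0.00374). Of 11 other lipases and proteins that handle their products 2 rose and 1 fell (median 0.32). Lipa, the acid lipase of lysosomes, averaged 794 CPM in KO and 143 CPM in WT implants (2.55, SE 0.24, adjusted p = 0.000522), and Fabp5, a fatty acid carrier, 159 and 60.3 CPM (1.38, SE 0.28, adjusted p = 0.0165, and 0.0626 without MWM2). Ces1d, a carboxylesterase with triglyceride lipase activity whose close paralogs may share reads, averaged 190.2 CPM in KO and 506 CPM in WT implants (-1.31, SE 0.33, adjusted p = 0.0363, up to 0.107 without 1 library and 0.0598 in edgeR). The macrophage markers given beside Adrb3 were higher in every KO implant than in every WT implant, and their part in the differences of Plin2, Hilpda, Lipa, Fabp5, Adcy3 and Adcy7 was not tested.

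Of 8 genes of catecholamine synthesis and clearance, 1 rose and 2 fell in KO against WT implants (median -0.42), where 6.67% of all genes rose and 4.1% fell. Maoa, which breaks noradrenaline down, averaged 94.97 CPM in KO and 33.5 CPM in WT implants (1.44, SE 0.22, adjusted p = 0.00454). Th and Dbh, enzymes of noradrenaline synthesis, were low: Th averaged 0.344 CPM in KO and 1.598 CPM in WT implants (adjusted p = 0.0317) and Dbh 1.09 and 2.51 CPM (adjusted p = 0.0300), each lost in 5 of 14 fits without 1 library (adjusted p up to 0.0802 for Th and 0.0981 for Dbh) and in edgeR (0.135 and 0.0878). In visceral fat Dbh had 3 reads over 5 libraries and Th 1 read. The 12 sensory neuron markers summed to 12.3 to 34.01 CPM in KO implants, 49.4 to 64.3 CPM in WT implants and 7.34 to 11.5 CPM in visceral fat, and their part in these differences was not tested. Of 8 antilipolytic receptors 0 were called in KO against WT implants by limma or edgeR and 0 had an unadjusted p under 0.05 in either; Insr, the insulin receptor, averaged 101 CPM in KO and 118 CPM in WT implants. Of 4 genes of the natriuretic peptide arm likewise 0 were called and 0 had such a p; Npr3, the clearance receptor, averaged 842 CPM in KO and 840.0 CPM in WT implants.

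**Figure D4:**
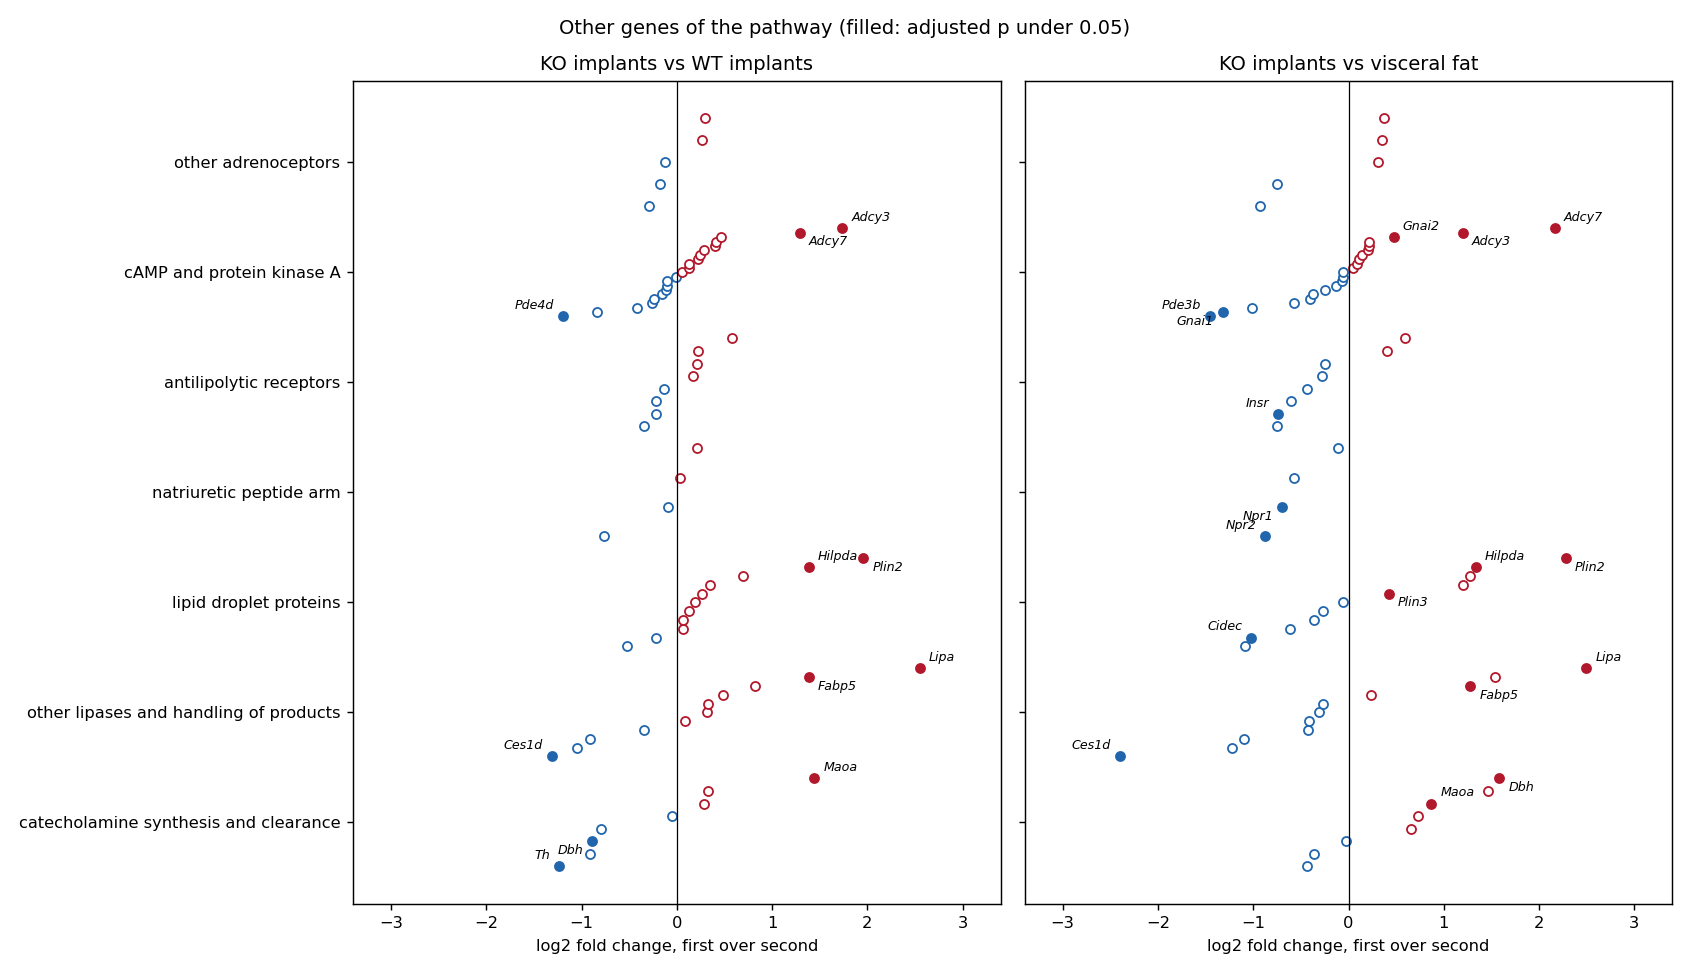
Log2 fold changes of the 68 further pathway genes in 7 lists, for KO implants against WT implants (left) and KO implants against visceral fat (right); each point is a gene, filled and named where its adjusted p was under 0.05. Lipa and Plin2 are the genes farthest to the right on the left side (2.55 and 1.96), and no adrenoceptor of the lists is filled on either side.

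Against visceral fat, 3 of the 21 genes of cAMP production and protein kinase A rose and 2 fell in KO implants, and 2 rose and 4 fell in WT implants, with the 5 visceral libraries shared by both. Of all genes 16.4% rose and 8.25% fell in KO implants, and 15.9% rose and 6.5% fell in WT implants. Pde3b, the phosphodiesterase through which insulin lowers cAMP in fat cells, averaged 202 CPM in KO implants, 236 CPM in WT implants and 528 CPM in visceral fat (log2 fold changes -1.46, adjusted p = 0.000852, and -1.20, adjusted p = 0.00173). Gnai1, an inhibitory G protein subunit, averaged 158 CPM in KO implants, 218 CPM in WT implants and 398 CPM in visceral fat (-1.32, adjusted p = 0.00137, and -0.90, adjusted p = 0.00650). Adcy7 was higher, by 2.16 in KO implants (adjusted p = 0.000557) and 0.88 in WT implants (adjusted p = 0.0244). Of the 8 antilipolytic receptors 1 fell in KO implants, and 2 fell and 1 rose in WT implants. Insr differed by -0.74 in KO implants (adjusted p = 0.00725) and -0.52 in WT implants (adjusted p = 0.0236), and in WT implants Sucnr1 fell (-0.92, adjusted p = 0.0339) and Ffar2 rose (0.73, adjusted p = 0.0213), both receptors that lower cAMP in fat cells. Of the 4 natriuretic genes 2 fell in both. Npr1, the receptor through which atrial natriuretic peptide drives lipolysis, chiefly known from human fat, differed by -0.69 in KO implants (adjusted p = 0.00573) and by -0.90 in WT implants (adjusted p = 0.00144), and Npr2 by -0.88 and -0.78 (adjusted p = 0.0181 and 0.0211). With the adipocyte scaling, which moved all genes up by 0.88 in KO and 0.87 in WT implants, the differences of Insr and Npr2 turned in both kinds of implant and that of Npr1 in KO implants, and no difference of Pde3b, Gnai1 or Npr1 was called. Pde3b then differed by -0.57 in KO implants (adjusted p = 0.0653) and -0.33 in WT implants (adjusted p = 0.200), and Gnai1 by -0.44 and -0.0275 (adjusted p = 0.158 and 0.917). In WT implants Npr1 differed by -0.0357 (adjusted p = 0.902) and Sucnr1 by -0.0469 (adjusted p = 0.855). Adcy7 and Ffar2 were higher before this upward shift of all genes, so the scaling could not turn them and does not test them.

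Of the 11 droplet proteins 3 rose and 1 fell in KO implants against visceral fat, where 16.4% of all genes rose and 8.25% fell. In WT implants 1 rose and 3 fell, beside 15.9% and 6.5% of all genes. Cidec, a droplet fusion protein and one of the 6 adipocyte markers, differed by -1.02 in KO implants (adjusted p = 0.0253) and -1.09 in WT implants (adjusted p = 0.0149). Plin2, Hilpda, Lipa and Fabp5 rose in KO implants against visceral fat by 2.28, 1.34, 2.497 and 1.28 (adjusted p = 0.000166, 0.00191, 0.000233 and 0.0102). Ces1d averaged 190.2 CPM in KO implants, 506 CPM in WT implants and 1047 CPM in visceral fat (-2.40, adjusted p = 0.00115, and -1.09, adjusted p = 0.0271). In WT implants Cidea, a droplet protein of brown fat, rose to 8.27 CPM, against 1.44 CPM in visceral fat (1.79, adjusted p = 0.0219). The 6 brown adipocyte markers, of which Cidea is one, summed to 24.6 to 43.7 CPM in KO implants, 38.4 to 55.3 CPM in WT implants and 9.04 to 12.8 CPM in visceral fat, where Ucp1, Zic1 or Dio2 was at 0 in each library. In subcutaneous fat they summed to 17.3 CPM in ESM1 and 43.5 CPM in ESM2, the latter inside the range of both kinds of implant. The part of such cells was not tested. Cavin1, a caveola protein, and Fabp4, a fatty acid carrier and adipocyte marker, fell in WT implants (-0.71, adjusted p = 0.0241, and -0.73, adjusted p = 0.0351). With the adipocyte scaling Cidec differed by -0.14 in KO and -0.22 in WT implants and Ces1d by -0.22 in WT implants (adjusted p = 0.657, 0.401 and 0.439), Cavin1 and Fabp4 turned, and Ces1d in KO implants was still lower (-1.52, adjusted p = 0.000583). Cidec and Fabp4 are themselves among the 6 markers that set this scale. It brings the mean difference of the 6 to 0 by construction, and so does not test them. Maoa and Dbh rose in KO implants (adjusted p = 0.0185 and 0.000998). In WT implants Dbh, Th and Ddc, a further enzyme of amine synthesis, rose (adjusted p = 0.000170, 0.00155 and 0.0149). Dbh and Th were near the floor in visceral and subcutaneous fat and passed the filter on low values through the implants alone. Their rise is therefore partly set by that filter, and its holding without 1 library adds no support. Leaving out 1 library ended the calls of Cidec (without MKF1, MKF2, MKM2 or EVFN2), Maoa and Npr2 (without MKF1) in KO implants, with adjusted p up to 0.0789, 0.0630 and 0.0520. In WT implants it ended those of Adcy7, Ces1d, Fabp4, Sucnr1, Insr, Npr2, Ffar2, Cavin1 and Cidea, each without MWM1 and without other libraries too, and those of Cidec and Ddc without MWM1 alone, with adjusted p up to 0.123. The calls of Pde3b, Gnai1, Npr1, Dbh and Th in WT implants held without any 1 library. Between visceral and subcutaneous fat 0 of the 68 rose and 1 fell (1.47%), where 0.565% of all genes were higher and 0.632% lower. The gene was Ffar2 (-1.36, lost in 5 of 14 fits without 1 library).

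The genes whose profile over the 14 libraries lay nearest to each of the 9 were found by the root mean square difference of centred log2(CPM + 0.5) values. For Adrb3 they were Fam13a (0.74), Retn, which encodes the fat cell hormone resistin (0.76), and Cfd, which encodes complement factor D (0.78), on a scale where Adrb3 itself spread by 2.13, Lipe by 0.45 and Plin1 by 0.42. Fam13a averaged 21.5 CPM in KO implants, 131 CPM in WT implants and 341 CPM in visceral fat, Retn 31.7, 152 and 859.9 CPM, and Cfd 99.1, 1560 and 9866 CPM on the same sides. Lipe and Plin1, which spread less, were each among the 3 nearest genes of the other (0.12), with Rgcc (0.10) nearest to Lipe and Sort1 (0.12) next for Plin1. Pnpla2 lay nearest to Bnip3 (0.18), Hibch and Pon3, and Mgll to the adenylyl cyclase Adcy6 (0.13), Ano10 and Afdn. Abhd5 lay nearest to the droplet protein Bscl2 (0.17), Txnrd3 and Dolk, and G0s2 to Hip1 (0.23) and Pik3cb. The low receptors Adrb1 and Adra2a lay nearest to Mcur1 (0.27) and Fam228b (0.24). These distances share the differences between the 4 sides and describe the libraries only.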

How the data were processed

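RNA of 16 libraries under 8 group codes was sequenced after enzymatic depletion of ribosomal RNA, with random hexamer priming, per the labels' protocols. STAR 2.5.4, Subread 1.6.3 (featureCounts), cutadapt 2.7 and FastQC 0.11.4 are named with the mm10 build (GRCm38), per the submitters' processing notes; their settings, and whether counting used strand, were not given in the sources used here. The sample labelled ESF is not analysed here. The authors deposited CPM values for 54658 genes, and each library summed to 1000000. Dividing by the CPM of 1 read turned 100% of values into whole reads within a tolerance of 0.001, and edgeR was run on these counts. The 95% intervals are limma's and rest on the spread between libraries.

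The test was limma 3.58.1 (R 4.3.3) on log2(CPM + 0.5), using its trend and robust options, over the 17871 genes that reached 1 CPM in 2 or more libraries. 1 model of group means held 14 libraries, with 6 residual degrees of freedom, and comparisons weight the group codes of a side equally. That scale understates changes of low genes. Ratios were compared by exact two-sided permutation over libraries. The scripts were tested on simulated data. Positions and exon lengths are those of GENCODE M21, which holds 99% of the symbols.

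The 9 genes, the pathway and marker lists and the exclusion of EVFN1 and MKM1 were chosen with earlier results of these data known. Named are the 9 genes, in each pathway list up to 3 called genes with the smallest adjusted p (with none called, the most abundant gene), and for each of the 9 the 3 nearest profiles; pathway genes of the comparisons with subcutaneous fat are not printed, and a few results are not reported here. Alternatives were other pseudocounts, no filter, median-of-ratios scaling, scaling to adipocyte markers, edgeR 4.0.16, all 16 libraries, a replicate block and leaving out each library.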

Additional observations from a re-analysis of the deposited data

Results flagged for a closer look

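In 18 tests of a gene in a group of 4 or 5 libraries, 2 libraries stood apart from the others of their side, where chance gives about 1 in 20. Adrb3 reached 170.63 CPM in MWF2, against 87.5 to 94.2 CPM in the other WT implants. Plin1 reached 2720.27 CPM in EVM2, against 1601 to 1879 CPM in the other visceral libraries.

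The library labelled MKM1, which enters no mean, lay above every WT implant in 4 of the 9 genes: Adrb3 at 397.7 CPM, Pnpla2 at 3370 CPM, Lipe at 1308 CPM and G0s2 at 227.5 CPM. The 3 other KO implants had at most 8.99 CPM of Adrb3. The library labelled EVFN1 had 8.35 CPM of Adrb3, against 108 to 603 CPM in the other visceral libraries.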

How the results depend on the processing

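With all 16 libraries as labelled, the genes called numbered 309 in KO against WT implants, 0 and 1735 in KO and WT implants against visceral fat, 49 and 444 in KO and WT implants against subcutaneous fat, 58 in visceral against subcutaneous fat and 217 in the male and female contrast. With the 14 libraries these counts were 1924, 4402, 4011, 3266, 1858, 214 and 98. Of the 9 genes, 0, 0, 1, 0 and 0 were then called in the first 5 comparisons. The ratio of Adra2a to Adrb3 differed by 1.70, 2.81 and 1.12 and that of G0s2 to Pnpla2 by 0.89 and 0.46, none of them past the threshold. Directions turned for Pnpla2 (0.12) and Npr3 (-0.00869) in KO against WT implants, Adra1a in WT implants against visceral fat (-0.0324), G0s2 in KO implants against subcutaneous fat (0.0651) and Pnpla2 in visceral against subcutaneous fat (-0.0898). Here the construction adds MKM1 and EVFN1; for the other settings the cause was not tested.

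Scaling to the 6 adipocyte markers gave 509 genes called in KO against WT implants (377 higher, 132 lower), 11259 (11088 and 171) and 13493 (13403 and 90) in KO and WT implants against visceral fat, 4496 and 3590 (3550 higher, 40 lower) against subcutaneous fat and 887 (884 and 3) in the male and female contrast. The median of all genes also moved by 0.65 in KO and 0.63 in WT implants against subcutaneous fat, by -0.24 in visceral against subcutaneous fat and by 1.02 in the male and female contrast. Of the 9 genes 2 were called in WT implants against visceral fat, 1 in KO implants and 0 in WT implants against subcutaneous fat. Directions turned in KO implants against visceral fat for Adra2a (0.65), Lipe (0.0268), Mgll (0.34), Abhd5 (0.74), G0s2 (0.57), Plin1 (0.21), Insr (0.15), Npr1 (0.19) and Npr2 (0.00675). In WT implants against visceral fat they turned for Lipe (0.23), Mgll (0.24), Abhd5 (0.64), Plin1 (0.37), Cavin1 (0.15), Fabp4 (0.14, itself among the 6 markers), Insr (0.35) and Npr2 (0.0837). Against subcutaneous fat they turned for Adrb1 (0.18), Adra2a (0.31), Mgll (0.34), Abhd5 (0.42) and G0s2 (0.63) in KO implants and for Adrb1 (0.0849), Mgll (0.24) and Abhd5 (0.31) in WT implants. They turned for Pnpla2 (-0.0658) and Mgll (-0.00104) in visceral against subcutaneous fat, and for Pnpla2 (0.23), Lipe (0.24), Mgll (0.31), G0s2 (0.46) and Plin1 (0.15) in the male and female contrast.

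Median-of-ratios scaling called 5 of the 9 genes in KO implants against visceral fat and 56 genes in the male and female contrast, where Adrb3 turned (-0.0701). It split the calls, higher and lower, into 2703 and 1937 in KO implants and 2428 and 1883 in WT implants against visceral fat, 2192 and 1238 in KO implants and 1394 and 587 in WT implants against subcutaneous fat, and 50 and 6 in the contrast; it moved the median of all genes by -0.11, -0.12 and -0.26 in the last 3. edgeR called 1182 genes and 0 of the 9 in WT implants against subcutaneous fat and 0 genes in the contrast, where Adrb3 turned (-0.00521). A pseudocount of 0.1 gave 0 genes in the contrast, a pseudocount of 2 gave 284, with 0 of the 9 in WT implants against subcutaneous fat, and no filter gave 282.

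Over 15 pairs of groups the deviations by replicate number correlated at -0.44 to 0.34, with a median of -0.048. The labels do not say what replicate numbers stand for, so this range cannot show whether libraries of particular groups were paired. A replicate block left 3 of the 9 genes called in WT implants against visceral fat, 2 in KO implants against subcutaneous fat (Lipe lost, adjusted p = 0.0718) and 0 in WT implants against subcutaneous fat, and turned Abhd5 in KO against WT implants (-0.0160), G0s2 in KO implants against subcutaneous fat (0.0393) and Adrb3 in the contrast (-0.12). With the block 1684 genes were called in KO against WT implants and 4143 in KO implants against visceral fat.

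Leaving out 1 library moved the genes called to 825 to 2357 in KO against WT implants, 2825 to 4669 and 1747 to 4252 in KO and WT implants against visceral fat, 1677 to 3598 and 302 to 2325 against subcutaneous fat, 55 to 425 in visceral against subcutaneous fat and 0 to 357 in the contrast, which cannot be fitted without MKM2. Of the 9 genes, 1 to 2, 1 to 5, 1 to 4 and 0 to 2 were called in KO against WT implants, WT implants against visceral fat, and KO and WT implants against subcutaneous fat. The ratio differences spanned 2.79 to 3.34, 4.49 to 5.23 and 1.47 to 2.21 for Adra2a to Adrb3 and 1.06 to 1.25 and 0.66 to 0.93 for G0s2 to Pnpla2; with fewer libraries the smallest possible p rises. Signs changed in KO against WT implants for Adrb1 (-0.10 to 0.35), Mgll (-0.0517 to 0.22), Abhd5 (-0.0716 to 0.26), Plin1 (-0.36 to 0.000196), Adra1a (-0.19 to 0.72) and Npr3 (-0.13 to 0.19), and against visceral fat for Abhd5 in KO implants (-0.33 to 0.0477) and Adrb1 (-0.0353 to 0.34) and Adra1a (-0.37 to 0.54) in WT implants. Against subcutaneous fat they changed for Mgll (-0.69 to 0.0741), Abhd5 (-0.56 to 0.10) and G0s2 (-0.71 to 0.69) in KO implants and Abhd5 (-0.65 to 0.00820) in WT implants. In visceral against subcutaneous fat they changed for Adrb3 (-0.71 to 0.11), Adra2a (-0.27 to 0.0456), Pnpla2 (-0.0914 to 0.33), Lipe (-0.35 to 0.33), Mgll (-0.15 to 0.62), Abhd5 (-0.42 to 0.24), G0s2 (-0.40 to 1.00) and Plin1 (-0.37 to 0.0837), and in the contrast for Adrb3 (-0.23 to 0.63).

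Of 504 values of the 9 genes under the settings that keep each library or add the 2 shown singly, 435 kept their direction and their side of the threshold. Genes that stayed uncalled count among these. Of the rest, 29 lost their call, 7 gained a call and 33 turned direction. Adrb1 and Adra2a rested on few reads (53 to 261 per library), which limits their precision.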
